A study of Mus musculus with 20 samples.

Results

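Cold exposure and infusion of CL316,243 (CL) were compared directly in the immune cells of interscapular brown adipose tissue (iBAT) of mice. The comparison used the 4 single-cell RNA-seq libraries of the lineage-positive (Lin+) fraction of C57 mice, 2 from cold-exposed mice (COLD) and 2 from CL-infused mice. Lin+ cells were those that magnetic beads retained with an antibody cocktail against T cell, B cell, myeloid, granulocyte and erythroid surface markers. Cells were kept when under 10% of their counts came from mitochondrial genes, their total was under 15000 counts and they had under 4000 genes. This left 29244 cells, 8604 and 7063 from COLD replicates 1 and 2 and 6895 and 6682 from CL replicates 1 and 2, out of 59935 kept Lin+ cells and 126274 kept cells in the 20 libraries of the series. Each result below was read in all of these cells, in a myeloid gate and in gates for B and T cells. The myeloid gate took cells with at least 3 counts of Csf1r, C1qa, C1qb and H2-Ab1 together and fewer than 1 count of Cd79a and Cd3e together. It held 14572 cells, 4975 and 3677 in COLD and 4059 and 1861 in CL.

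COLD mice were kept at 6 °C for 4 days, and CL mice were housed at 24 °C and received 0.75 nmol of CL per hour for 4 days from a micro-osmotic pump under the skin. CL is an agonist of the β3 adrenergic receptor. All were male C57 mice of 8 to 14 weeks, and each library pooled the tissue of 3 to 4 mice, which makes the pool the replicate. The labels state no separate cultures or single animals, and p-values measure the spread between pools. Room temperature (RT, 24 °C) Lin+ libraries of the same strain, 2 with 9676 kept cells, served as a reference level and shared the estimate of spread. COLD mice were housed singly without nesting and CL mice had pump surgery, so temperature, housing, surgery and drug cannot be told apart in any difference below.

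In iBAT, cold reaches the tissue through sympathetic nerves, whereas CL acts on the β3 receptor, which is found mainly on adipocytes. Adipose tissue holds resident macrophages that carry scavenger and mannose receptors such as Cd163 and Mrc1, lipid-associated macrophages that express Trem2, Gpnmb and Spp1 and clear lipid and debris, and dendritic cells that present antigen. Type I interferon is a secreted signal that raises a common set of antiviral genes in nearly every cell type.

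The libraries differed in depth and quality. The median mitochondrial share of kept cells was 0.411% and 0.109% in COLD and 0.00359% and 2.09% in CL. A fixed mitochondrial limit need not act alike on them. Kept cells were 91.7% and 92.9% of barcodes in COLD and 77.1% and 92.3% in CL, and 22.8% of the barcodes of CL replicate 1 carried at least 10% mitochondrial counts. Total counts were 41979839 and 33463863 in COLD and 20937938 and 20830748 in CL, with medians of 4358 and 4214 counts per cell in COLD and 2545 and 1922 in CL. Replicate libraries of CL differed more than those of COLD, with a median absolute log2 difference between replicates of 0.308 against 0.148 over the genes of myeloid cells. Pairs of these 4 libraries shared 56 to 84 cell barcodes. At least 1 count of the 7 pan-immune and myeloid marker genes was present in 94.0% to 97.8% of the gated myeloid cells. These genes include Csf1r, which also sets the gate. The same held for 25.1% to 61.7% of gated B cells and 47.8% to 69.0% of gated T cells, so this is a weak check of the gate.

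The first question was whether the immune fraction had a different makeup. Gates on marker genes gave no difference larger than the spread between replicates for myeloid, B and T cells. Myeloid cells were 57.8% and 52.1% of kept cells in COLD, 58.9% and 27.9% in CL, and 34.5% and 31.5% at RT. The COLD libraries and CL replicate 1 were alike in this share, and CL replicate 2 lay below both RT libraries. The difference of 11.6 percentage points had an exact permutation p of 1, and it was -3.93 points without CL replicate 2. On cells thinned to 800 counts, with shallower cells left out and a gate of at least 2 counts, it was 4.23 points. B cells were 4.77% and 8.69% in COLD, 5.77% and 21.7% in CL and 22.1% and 26.3% at RT, so that CL replicate 2 was again close to RT (difference -7.01 points, exact permutation p = 0.667, and 0.957 points without CL replicate 2). T cells were 3.87% and 7.46% in COLD and 1.89% and 8.07% in CL (difference 0.69 points, exact permutation p = 1).

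Natural killer (NK) cells, neutrophils and non-immune cells did not overlap between the groups. NK cells were 2.09% and 2.07% of kept cells in COLD and 1.04% and 1.72% in CL. Neutrophils were 0.616% (95% Clopper-Pearson interval 0.462 to 0.805) and 2.46% (2.11 to 2.85) in COLD and 3.38% (2.97 to 3.83) and 5.99% (5.43 to 6.58) in CL. Cells with at least 2 counts of stromal or endothelial genes and fewer than 1 of Ptprc were 1.64% and 0.835% in COLD and 4.53% and 15.8% in CL. Both CL libraries lay above both COLD libraries for neutrophils and non-immune cells, and below them for NK cells. The exact permutation test gave p = 0.333 for each, the smallest that 2 libraries against 2 allow, and the intervals cover counting error only. Shares were also taken on cells thinned to 800 counts. Cells with fewer counts were left out, 4.88% and 3.07% in COLD and 13.1% and 15.4% in CL. The NK difference then shrank from 0.697 to 0.184 points. The libraries overlapped, at 1.30% and 1.46% in COLD and 0.884% and 1.503% in CL (exact permutation p = 1). The non-immune shares became 4.10% and 4.17% in CL and 1.19% and 0.67% in COLD.

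**Figure D1:**
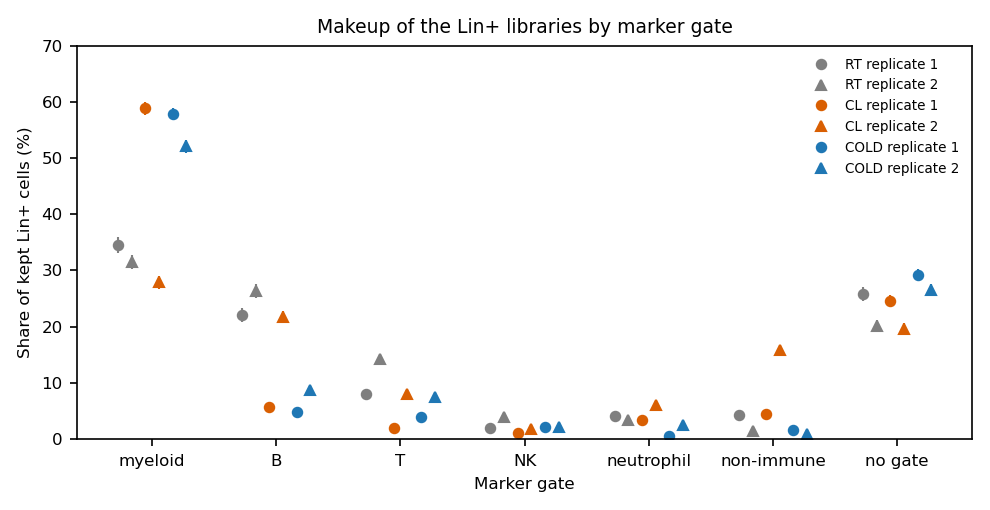
Share of kept Lin+ cells past each marker gate, in percent, for the 6 C57 libraries, with 95% Clopper-Pearson intervals as bars (most are smaller than the points). In myeloid and B cells, CL replicate 2 sits near the RT libraries and CL replicate 1 near the COLD libraries.

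Summed over all kept Lin+ cells, 16 of 13941 genes differed between COLD and CL by edgeR's quasi-likelihood test with Benjamini-Hochberg adjustment (0.115% of genes tested), 8 higher in COLD and 8 higher in CL (0.0574% each). At an unadjusted p under 0.05 there were 2263 genes, and with the replicate number as a block edgeR called 101 (45 and 56). The genes higher in COLD were led by Il12b, which encodes a subunit of interleukin 12. Il12b was at 31.3 and 36.7 CPM (counts scaled to a common library size) in COLD, 7.5 and 6.67 in CL and 9.37 and 7.56 at RT (log2 difference COLD minus CL 2.29, SE 0.21, adjusted p 0.0491). Its COLD libraries lay above the other 4 libraries. The dendritic cell genes Il4i1 (1.92), Cacnb3 (1.90) and Fscn1 (1.59, the actin bundler of mature dendritic cells) and the interferon gene Ifit3b (1.77) also rose in COLD relative to CL. The interferon gene Isg15 missed the threshold in this sum (1.43, adjusted p 0.0754) and passed it with the replicate block (1.44, adjusted p 0.0397).

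Genes lower in COLD over all Lin+ cells included Ngp, a granule protein of developing neutrophils, at 3.31 and 3.53 CPM in COLD and 51.2 and 32.9 in CL (log2 difference -3.57, adjusted p 0.0491). Hp, which encodes the haemoglobin-binding protein haptoglobin, was at 53.9 and 48.2 CPM in COLD and 197 and 174 in CL (-1.83, adjusted p 0.0485). Fcrls, a gene of resident macrophages, was at 30.4 and 26.5 CPM in COLD and 130 and 97.3 in CL (-1.96, adjusted p 0.0491). For these 3 genes the groups did not overlap, which held for all 16 called genes and adds nothing to the calls. Igfbp4, an insulin-like growth factor binding protein, was also lower in COLD (-1.64). In a sum over all cells, fewer cells of a type and less RNA per cell cannot be told apart, and the neutrophil gate held more cells in CL. None of the 9 genes named from this sum was called without any 1 of the COLD or RT libraries, whereas all 9 were called without either CL library. None of the 9 was called with a mitochondrial limit of 5%, without doublets or with only the 4 COLD and CL libraries.

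Within myeloid cells the difference was broader. edgeR called 409 of 12504 genes (3.27%), of which 137 (1.1%) were higher in COLD and 272 (2.18%) higher in CL, and 2633 genes had an unadjusted p under 0.05. The genes higher in CL included 11 of 15 tested resident macrophage genes, and those higher in COLD included 13 of 24 interferon response genes. Most of the called genes were in no list. With the replicate block 700 genes were called (237 higher in COLD and 463 higher in CL), and with DESeq2 907 (349 and 558). The count was 998 without CL replicate 1 and 1024 without CL replicate 2, but 24 without COLD replicate 1, 4 without COLD replicate 2 and 61 without either RT library. Most calls were thus lost without either COLD library and also without either RT library, and the reason was not tested. Of the 52 called myeloid genes followed here, 52 were called without CL replicate 2, 45 without CL replicate 1, 16 without either RT library, 8 without COLD replicate 1 (Ass1, Ccl24, Cd163, F13a1, Ifi44, Phlda3, Serpina3g and Slco2b1) and 2 without COLD replicate 2 (Ass1 and Cd163). Those lost without a COLD library kept their direction, with adjusted p-values up to 0.388.

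Myeloid sums also held RNA of other cells, in amounts that differed between libraries. Summed over 10 neutrophil genes they held 158 and 411 CPM in COLD, 673 and 5257 in CL and 2238 and 2660 at RT. S100a8, the most abundant neutrophil alarmin, was at 52.1 and 196 CPM in COLD and 264 and 2851 in CL (log2 difference -3.74, adjusted p 0.12; -3.34 and 0.0466 with the replicate block). Its level in CL replicate 2 exceeded that of both RT libraries. B cell markers summed to 252 and 386 CPM in COLD and 481 and 975 in CL. Erythroid genes summed to 1490 and 4458 CPM in COLD and 1750 and 9861 in CL. T cell markers went the other way in their sum, at 149 and 138 CPM in COLD and 80.3 and 128 in CL. Of 11 such genes outside the gate, however, only 4 had estimates higher in COLD (median log2 difference -0.20), and 1 was called higher there. Of 8 regulatory and activated T cell genes 4 had estimates higher in COLD (median 0.01), and 2 were called higher there. Over all genes tested 1.1% were called higher in COLD. The B cell gene Cd79a, which the gate itself limits, was at 3.24 and 6.38 CPM in COLD and 9.65 and 24.2 in CL. Of 9 brown adipocyte genes 2 were called, both higher in CL (Cfd, -4.73, adjusted p 0.0473, and Cox8b, -3.04, adjusted p 0.0348), and 7 had both CL libraries above both COLD libraries (median -2.20, against 25.9% of all genes tested not overlapping in that direction). Their sums were 262 and 226 CPM in COLD and 516 and 167 in CL. Of 6 tested adipose stromal genes 5 did not overlap, each higher in CL (median -3.02), and none passed by edgeR (4 at an unadjusted p under 0.05, lowest adjusted p 0.111 for Col3a1). They summed to 22.8 and 21.6 CPM in COLD and 22.8 and 244 in CL, so that only CL replicate 2 stood apart in the sum. The part of these cells in the myeloid results was not tested, except that 47 of these 52 calls were kept without cells holding lymphocyte genes and 48 without the 6% of cells with the highest doublet scores.

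Resident macrophage genes were lower in the myeloid sums of COLD than in those of CL. In these sums too, fewer resident macrophages and less RNA per macrophage cannot be told apart. Of 16 listed genes 15 had enough counts to be tested and 11 were called, each higher in CL. The median log2 difference of the tested genes was -2.03 against -0.01 over all genes tested. Cd163, the scavenger receptor for haemoglobin, was at 9.13 and 6.63 CPM in COLD, 88.9 and 61.8 in CL and 123 and 105 at RT (log2 difference -3.23, SE 0.21, adjusted p 0.00355). Its CL libraries lay close to RT and its COLD libraries far below both. Mrc1, the mannose receptor, was at 131 and 82.8 CPM in COLD, 577 and 317 in CL and 486 and 372 at RT (-2.03, SE 0.31, adjusted p 0.025). Ccl24, a chemokine for eosinophils, was at 16.2 and 10.8 CPM in COLD, 97.4 and 79.3 in CL and 117 and 102 at RT (-2.69, adjusted p 0.00728). For Mrc1 and Ccl24 the CL and RT ranges were likewise close or overlapping and COLD lay below.

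F13a1, the subunit of clotting factor XIII that resident macrophages make, was at 75.7 and 52.4 CPM in COLD, 449 and 321 in CL and 281 and 259 at RT (-2.56, SE 0.22, adjusted p 0.00728). Folr2, a folate receptor, was at 114 and 87.7 CPM in COLD, 670 and 283 in CL and 157 and 144 at RT (-2.19, adjusted p 0.0233). Fcna, a ficolin that recognises bacterial sugars, was at 8.04 and 6.54 CPM in COLD, 66.7 and 24.6 in CL and 19.8 and 10.4 at RT (-2.59, adjusted p 0.0307). For these 3 genes CL lay above RT and COLD below it. Vcam1, an adhesion molecule, was highest at RT, with 5.73 and 3.42 CPM in COLD, 25 and 24.5 in CL and 97.7 and 45.6 at RT (-2.41, adjusted p 0.03). Cbr2 (-1.91), the growth arrest ligand Gas6 (-1.86), the chemokine Pf4 (-1.45) and the lectin Clec10a (-1.37) fell by less. Lyve1, the hyaluronan receptor of perivascular macrophages, was at 9.8 and 5.83 CPM in COLD and 52.5 and 11.7 in CL (-1.96, adjusted p 0.149; -1.75 and 0.0196 with the replicate block).

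The list summed to 1582 and 1299 CPM in COLD, 6060 and 3587 in CL and 4822 and 4293 at RT. Set against RT, which both comparisons share, its median log2 difference was -2.07 in COLD and -0.04 in CL. All 15 tested members had both CL libraries above both COLD libraries, against 25.9% of all genes tested. The paper gave Folr2, F13a1, Cbr2, Pf4, Gas6 and Mrc1 for a macrophage cluster that it reported as reduced by cold in these COLD libraries. The list was thus not chosen independently of the COLD values. When the gate was built without H2-Ab1, which leaves 2432 and 1570 cells in COLD and 3093 and 1114 in CL, 9 of the 15 were called, each lower in COLD. With the replicate block 13 of the 15 were called, but 5 with a mitochondrial limit of 5%, 3 with only the 4 COLD and CL libraries, 4 of 16 tested without either RT library, 3 of 16 without COLD replicate 1 and 1 of 16 without COLD replicate 2. The median stayed between -2.44 and -1.61 under every alternative. The share of cells with a count gave the same order. For this, cells with at least 800 counts were thinned to 800 counts, and shallower cells were left out. Mrc1 was found in 9.03% and 5.80% of these myeloid cells in COLD and 34.5% and 19.9% in CL. F13a1 was found in 5.81% and 3.64% in COLD against 29.1% and 20.4% in CL. Gated T cells thinned alike, which should lack both, gave 0.763% to 3.28% for Mrc1 and 0.321% to 1.64% for F13a1 in these 4 libraries.

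**Figure D2:**
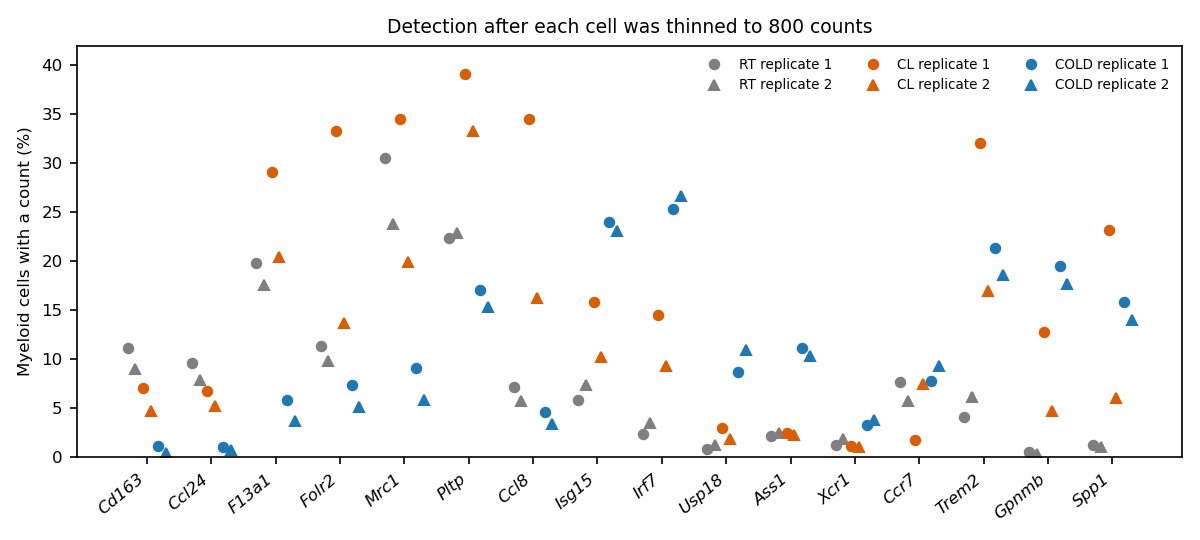
Share of myeloid-gated cells, in percent, with at least 1 count of each gene after cells were thinned to 800 counts, one point per library. Cells with fewer than 800 counts were left out. Cd163, Ccl24, F13a1, Folr2, Mrc1, Pltp and Ccl8 are lowest in COLD, and Isg15, Irf7, Usp18 and Ass1 are highest there.

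Further genes outside the resident macrophage list were called higher in CL. The 12 largest called differences toward CL included Ednrb, an endothelin receptor, at 6.82 and 4.81 CPM in COLD, 162 and 38.4 in CL and 23.2 and 10.8 at RT (-4.02, SE 0.63, adjusted p 0.0272). Ccl8, a chemokine for monocytes and eosinophils, was at 118 and 122 CPM in COLD, 2974 and 885 in CL and 175 and 165 at RT (-3.94, SE 0.47, adjusted p 0.0141). For both genes CL replicate 1 was highest by a wide margin, and CL replicate 2 was still above the COLD and RT libraries. Slco2b1, an organic anion transporter, was at 6.44 and 3.93 CPM in COLD, 33.9 and 39.0 in CL and 58.3 and 72.6 at RT (-2.80, adjusted p 0.00854). Slc40a1, the iron exporter ferroportin, was at 13.4 and 7.85 CPM in COLD and 80.9 and 37.9 in CL (-2.43, adjusted p 0.0297). Npl, an enzyme of sialic acid breakdown (-2.70), and Cd38, an NAD-consuming ectoenzyme (-2.52), were also higher in CL.

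Of 10 listed genes of alternative activation, 4 were called higher in CL and 2 higher in COLD (median -1.35). Over all genes tested 2.18% were called higher in CL and 1.1% higher in COLD. Arg1, which encodes arginase, was at 0.929 and 1.77 CPM in COLD, 15.0 and 5.75 in CL and 0 and 0.297 at RT (-2.91, adjusted p 0.034). Fn1, fibronectin, was at 34.0 and 41.9 CPM in COLD, 115 and 246 in CL and 147 and 178 at RT (-2.29, adjusted p 0.034), and the lectin Cd209d fell as well (-1.99, adjusted p 0.0156), beside Ccl8. Socs2, a feedback inhibitor of cytokine receptors, was at 29.1 and 31.5 CPM in COLD and 7.05 and 8.96 in CL (1.93, adjusted p 0.0187). Pdcd1lg2, the second ligand of the receptor PD-1, was low in every library, at 3.17 and 4.26 CPM in COLD and 0.866 and 1.27 in CL (1.84, adjusted p 0.0487). The list thus moved in both directions, and Retnla, a textbook member, was not called (-2.06, adjusted p 0.181). The calls of Arg1, Fn1, Socs2 and Pdcd1lg2 were lost with the gate without H2-Ab1. With only the 4 COLD and CL libraries those of Cd209d and Ccl8 were lost as well.

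Complement genes outside the gate gave 2 of 8 called, both higher in CL (median -0.72), against 2.18% of all genes tested called higher in CL. C4b, a component of the classical pathway, was at 3.78 and 3.00 CPM in COLD, 57.6 and 23.9 in CL and 25.9 and 13.7 at RT (-3.53, adjusted p 0.0142). Both CL libraries lay above both COLD libraries for C4b, with RT near CL replicate 2 or below it. Among 10 cholesterol efflux genes 2 were called higher in CL (median -0.01), against the same 2.18%. They were Abca1, the cholesterol exporter, at 42.2 and 32.3 CPM in COLD and 154 and 76.2 in CL (-1.58, adjusted p 0.0345), and Pltp, the phospholipid transfer protein, at 296 and 251 CPM in COLD and 785 and 689 in CL (-1.42, adjusted p 0.0194). Pltp in COLD lay just below both RT libraries.

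Among 15 secreted growth factors 2 were called higher in CL, against 2.18% of all genes tested. They were Pdgfc (-2.47, adjusted p 0.0498) and Bmp2 (-1.38, adjusted p 0.0347), and the list's median was -0.33. Both were low, with Pdgfc at 3.88 and 1.94 CPM in COLD and 26.2 and 7.7 in CL. Igf1 (-0.48, adjusted p 0.388) and Pdgfb (-0.68, adjusted p 0.222) did not pass. Of 11 circadian clock genes the repressors Nr1d1 and Nr1d2 were higher in CL, against the same 2.18% of all genes tested. Both calls were lost with the gate without H2-Ab1 and with only the 4 COLD and CL libraries. Nr1d1 was at 3.11 and 3.63 CPM in COLD, 11.3 and 13.9 in CL and 5.77 and 5.05 at RT (-1.90, adjusted p 0.0193), and Nr1d2 differed by -0.97 (adjusted p 0.043). The hour of tissue collection is not given in the sources used here. Mt2, a metallothionein, was at 15.0 and 16.3 CPM in COLD, 48.6 and 96.2 in CL and 145 and 126 at RT (-2.24, adjusted p 0.03), and the glucocorticoid-responsive kinase Sgk1 went the other way (0.81, adjusted p 0.0491). Hp was again higher in CL (-2.14, adjusted p 0.0272), and so was Cox6a2 (-1.41, adjusted p 0.0398), from the lists of monocyte and plasmacytoid dendritic cell genes, in which no other member passed.

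No lipid-associated macrophage gene was called between COLD and CL. Of 17 genes 0 were called by edgeR (3 at an unadjusted p under 0.05, 2 by DESeq2) and the median was 0.32. Trem2, the lipid receptor of these cells, was at 485 and 410 CPM in COLD, 694 and 322 in CL and 65.7 and 78.1 at RT (-0.13, SE 0.28, adjusted p 0.832). The COLD and CL libraries overlapped and lay above RT. Spp1, osteopontin, was at 731 and 751 CPM in COLD, 1325 and 222 in CL and 31.1 and 29.0 at RT (0.04, SE 0.60, adjusted p 0.98). Gpnmb, a glycoprotein of lysosomes, was at 682 and 665 CPM in COLD, 384 and 158 in CL and 18.3 and 6.98 at RT (1.37, SE 0.44, adjusted p 0.14; 1.5 and 0.0407 with the replicate block). For Gpnmb both COLD libraries were above both CL libraries. Against RT, the list's median difference was 2.58 in COLD and 2.14 in CL, with the RT libraries common to both values. The paper gave Trem2, Gpnmb and Spp1 for a macrophage cluster that it reported as increased by cold in these COLD libraries. The list was thus chosen with the COLD values known. The CL replicates lay far apart for Spp1. Leaving out CL replicate 2 gave 2 called members, both higher in CL, while leaving out CL replicate 1 gave 6, each higher in COLD. With the gate built without H2-Ab1 none was called by edgeR, and 10 of the 17 had an unadjusted p under 0.05, each higher in COLD (median 0.87). Over all genes tested with that gate, 2119 of 11830 had an unadjusted p under 0.05 in either direction.

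**Figure D3:**
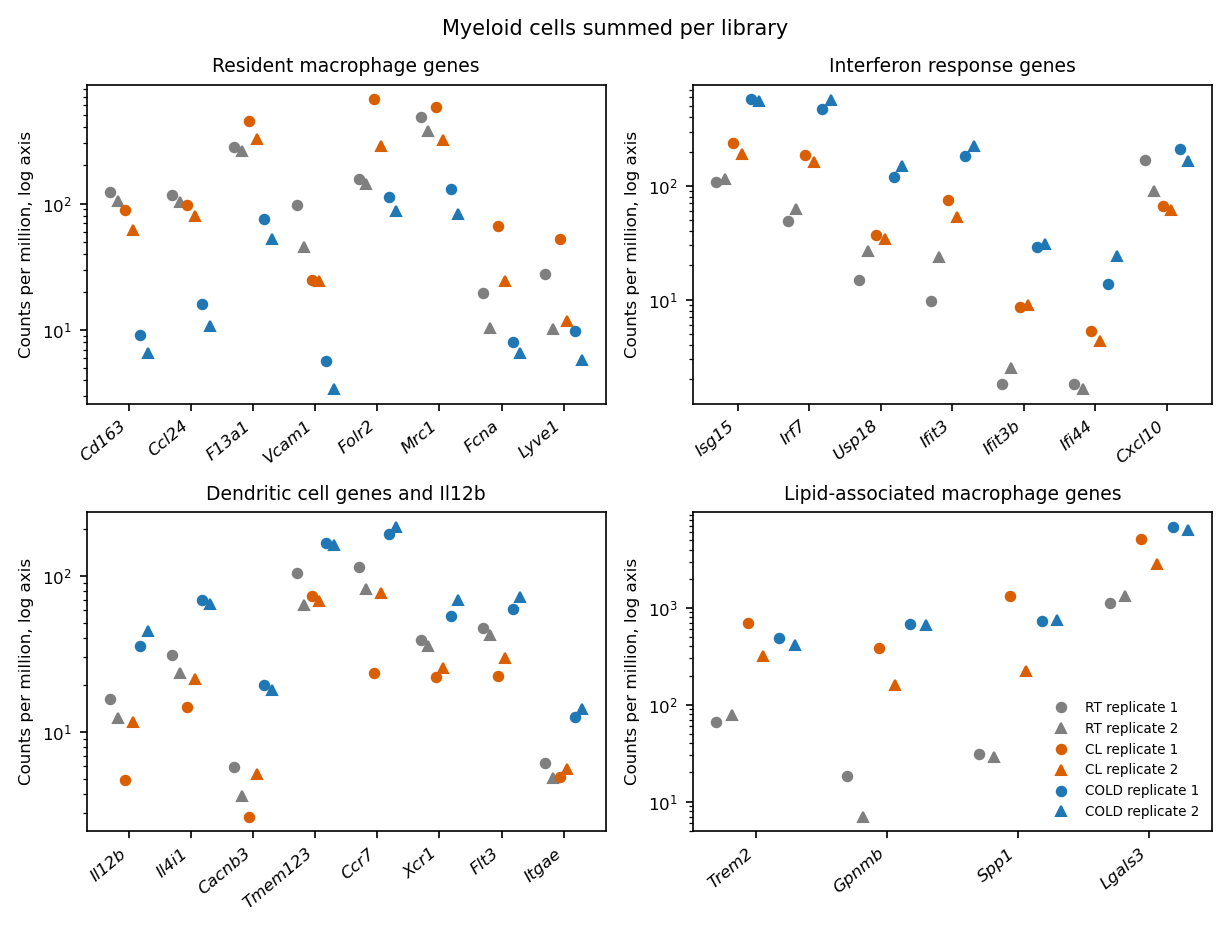
Level of named genes in the sums over myeloid-gated cells, in CPM on a log axis, one point per library. Resident macrophage genes are lowest in COLD, and interferon genes are highest in COLD except Cxcl10, where RT replicate 1 lies above COLD replicate 2. For Trem2 and Spp1 the COLD points lie between the CL replicates.

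Interferon response genes were higher in COLD than in CL in myeloid cells. Of 24 listed genes 13 were called, each higher in COLD, with a median log2 difference of 1.04. Both COLD libraries lay above both CL libraries for 21, against 22.8% of all genes tested. The paper gave Irf7, Ifit3, Rsad2, Isg15, Ifi204, Ifi207 and Ifi209 for a macrophage cluster that it reported as raised by cold in these COLD libraries. This list too was thus not chosen independently of the COLD values. The promoters of 4 listed genes are shown with letter matches to the interferon-stimulated response element, the sequence through which interferon acts on its target genes. Isg15, Ifit3 and Cxcl10 were called in myeloid cells and Ifit1 was not. Each stretch holds 220 bases before the start of the gene, from RefSeq on GRCm38.p6, read 5′ to 3′ on the gene's strand. Capitals mark matches to GAAA followed, after any 2 bases, by a second GAAA, on either strand. Isg15 lies on the minus strand (chr4:156200819-156201038), Ifit1 (chr19:34640669-34640888) and Ifit3 (chr19:34583309-34583528) on the plus strand and Cxcl10 on the minus strand (chr5:92348890-92349109).
Isg15: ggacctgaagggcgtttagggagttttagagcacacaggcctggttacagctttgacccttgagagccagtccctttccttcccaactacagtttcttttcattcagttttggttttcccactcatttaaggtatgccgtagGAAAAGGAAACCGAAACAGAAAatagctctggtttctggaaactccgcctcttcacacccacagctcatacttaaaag
Ifit1: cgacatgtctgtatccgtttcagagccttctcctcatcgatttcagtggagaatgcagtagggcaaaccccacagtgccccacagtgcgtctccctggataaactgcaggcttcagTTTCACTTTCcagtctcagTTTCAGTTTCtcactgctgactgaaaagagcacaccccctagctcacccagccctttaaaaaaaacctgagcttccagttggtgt
Ifit3: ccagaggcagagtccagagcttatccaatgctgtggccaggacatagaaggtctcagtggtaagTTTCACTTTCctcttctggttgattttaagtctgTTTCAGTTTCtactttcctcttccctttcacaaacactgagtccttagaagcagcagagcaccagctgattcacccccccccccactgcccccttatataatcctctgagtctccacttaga
Cxcl10: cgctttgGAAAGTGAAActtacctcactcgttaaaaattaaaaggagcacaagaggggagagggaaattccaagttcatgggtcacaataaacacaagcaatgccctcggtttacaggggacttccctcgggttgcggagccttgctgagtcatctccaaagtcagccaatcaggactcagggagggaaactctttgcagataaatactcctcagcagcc
The capitals span 3 overlapping matches in Isg15, 2 each in Ifit1 and Ifit3 and 1 in Cxcl10. RefSeq windows of 300 bases (250 before the start and 50 after) were found for 17 of the 24 genes. The motif was in 10 of their 18 promoters (55.6%) and in 1131 of 32851 promoters of all genes (3.44%). Of the 13 called genes 10 had a window, and 5 of these held the motif. A match is a run of letters and not a measured binding site.

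Isg15, a ubiquitin-like modifier, was at 579 and 561 CPM in COLD, 238 and 189 in CL and 109 and 115 at RT (1.44, SE 0.16, adjusted p 0.0118). Irf7, the factor that amplifies interferon production, was at 470 and 567 CPM in COLD, 188 and 161 in CL and 48.6 and 63.0 at RT (1.59, SE 0.19, adjusted p 0.0141). Usp18, which removes Isg15 from proteins, was at 119 and 151 CPM in COLD, 36.9 and 34.0 in CL and 15.0 and 26.4 at RT (1.94, SE 0.25, adjusted p 0.0164). The 3 groups did not overlap for any of these genes and stood in the order COLD, CL, RT. Ifit3, which binds viral RNA together with Ifit1, was at 181 and 222 CPM in COLD, 75.6 and 53.4 in CL and 9.72 and 23.6 at RT (1.67, adjusted p 0.0431), and its neighbour Ifit3b was at 28.9 and 30.8, 8.53 and 8.87, and 1.81 and 2.52 (1.79, adjusted p 0.0118). Ifit3 and Ifit3b are near copies, so reads could be split between them. Cxcl10, a chemokine for T cells, differed from this order, with 210 and 166 CPM in COLD, 66.1 and 61.5 in CL and 170 and 90.9 at RT (1.57, adjusted p 0.0403). Cxcl10 in CL lay below both RT libraries.

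Ifi44 (1.99), Mx1 (1.52), Rsad2 (1.46), Cmpk2 (1.26), Ifit2 (1.10) and Ifi209 (0.84) were called as well. Ifit1 had both COLD libraries above both CL libraries and did not pass (1.40, adjusted p 0.112). Outside the list Isg20, an exonuclease raised by interferon, was at 78.2 and 89.5 CPM in COLD and 24.7 and 25.9 in CL (1.73, adjusted p 0.0118), and Ifi205 was at 130 and 101 CPM against 25.5 and 33.9 (1.96, adjusted p 0.0254). Relative to the shared RT libraries the list's median was 2.06 in COLD and 0.92 in CL. With the gate built without H2-Ab1, 9 of the 24 were called, each higher in COLD (median 0.90). The count was 8 with the 5% limit, with only the 4 libraries and without either RT library, 1 without COLD replicate 1 and 0 without COLD replicate 2 (17 at an unadjusted p under 0.05). Isg15 was found in 24.0% and 23.1% of thinned myeloid cells in COLD, 15.8% and 10.2% in CL and 5.82% and 7.3% at RT.

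Some dendritic cell genes were higher in COLD, and these calls depended on how the gate was drawn and on other settings. The paper gave Irf8, Ppt1, Jaml, Naaa, Cd209a, Itgam, Tnip3, Clec4b1, Tmem123 and Ccr7 for dendritic cell clusters. It reported those clusters as increased by cold in these COLD libraries. The lists of dendritic cell genes were thus not chosen independently of the COLD values either. Of 12 genes of conventional dendritic cells type 1 (cDC1), which cross-present antigen, 3 were higher in COLD (median 0.82). Xcr1, the chemokine receptor that defines them, was at 55.2 and 69.6 CPM in COLD, 22.4 and 25.5 in CL and 38.9 and 35.5 at RT (1.38, SE 0.21, adjusted p 0.0238). Flt3, the growth factor receptor of dendritic cells (1.35, adjusted p 0.0322), and Itgae, the integrin chain CD103 (1.29, adjusted p 0.0344), were the others. COLD was highest and CL lowest for Xcr1 and Flt3. Of 9 genes of mature dendritic cells, which migrate to lymph nodes, 3 were higher in COLD (median 1.73). Il4i1, an amino acid oxidase, was at 69.6 and 66.2 CPM in COLD, 14.5 and 21.9 in CL and 31.1 and 23.9 at RT (1.90, adjusted p 0.0238). Cacnb3 (2.25, adjusted p 0.03) and Tmem123 (1.17, adjusted p 0.043) passed too. Ccr7, the receptor that guides them to lymph nodes, was at 186 and 207 CPM in COLD and 23.9 and 77.3 in CL (1.91, SE 0.54, adjusted p 0.105). Over all genes tested 1.1% were called higher in COLD. With the replicate block and with DESeq2 6 of the 12 cDC1 genes and 6 of the 9 mature genes were called. Over all 12504 genes the block called 700 and DESeq2 907. With the 5% mitochondrial limit edgeR called 0 of both (7 and 7 at an unadjusted p under 0.05), with only the 4 libraries or without either RT library 0 and 1, and without either COLD library 0 and 0.

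H2-Ab1, an MHC class II gene, is both in the gate and highly expressed in dendritic cells. A gate without it leaves out cells that passed through H2-Ab1 alone. A loss of calls under that gate therefore does not test whether dendritic cells differed. With a gate on Csf1r, C1qa and C1qb alone, edgeR called 0 of the 9 mature genes (3 at an unadjusted p under 0.05, median 0.44). It called 1 of 11 tested cDC1 genes, higher in CL, and the median of that list was -0.12. Summed over all Lin+ cells, where no gate enters, Il12b, Il4i1, Cacnb3 and Fscn1 were higher in COLD, as given above. These 4 calls were lost with the 5% limit, without doublets and with only the 4 COLD and CL libraries. That sum also depends on the makeup of each library. In the myeloid gate Il12b was at 35.4 and 44.5 CPM in COLD, 4.89 and 11.5 in CL and 16.1 and 12.2 at RT (2.29, SE 0.43, adjusted p 0.0398), and -0.32 with the gate without H2-Ab1. Grasp, a scaffold protein (2.43, adjusted p 0.043), Serpina3g (1.98, adjusted p 0.0183) and the receptor Gpr171 (1.78, adjusted p 0.0205) were among the largest differences toward COLD. Klrd1, a lectin receptor best known from NK cells, was the 1 called member of 7 genes of Cd209a dendritic cells (1.23, adjusted p 0.043), a call lost without cells holding lymphocyte genes, without CL replicate 1, with the gate without H2-Ab1 and with the 5% limit. Cd209a itself was not called (0.40, adjusted p 0.579).

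Ass1, argininosuccinate synthase, which rebuilds arginine from citrulline, gave the lowest adjusted p among the genes higher in COLD that are named here. It was at 153 and 145 CPM in COLD, 34.9 and 29.6 in CL and 43.3 and 56.6 at RT (2.22, SE 0.16, adjusted p 0.00549). Both COLD libraries lay far above the other 4, and a count was found in 11.1% and 10.3% of thinned myeloid cells in COLD against 2.41% and 2.2% in CL. T cells thinned alike gave 8.01% and 8.97% in COLD and 15.6% and 9.68% in CL for Ass1, so that in the CL libraries a count was more frequent in T than in myeloid cells. Phlda3, a target of p53, was at 43.4 and 46.8 CPM in COLD, 14.0 and 9.94 in CL and 4.12 and 5.64 at RT (1.93, SE 0.19, adjusted p 0.00854).

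**Figure D4:**
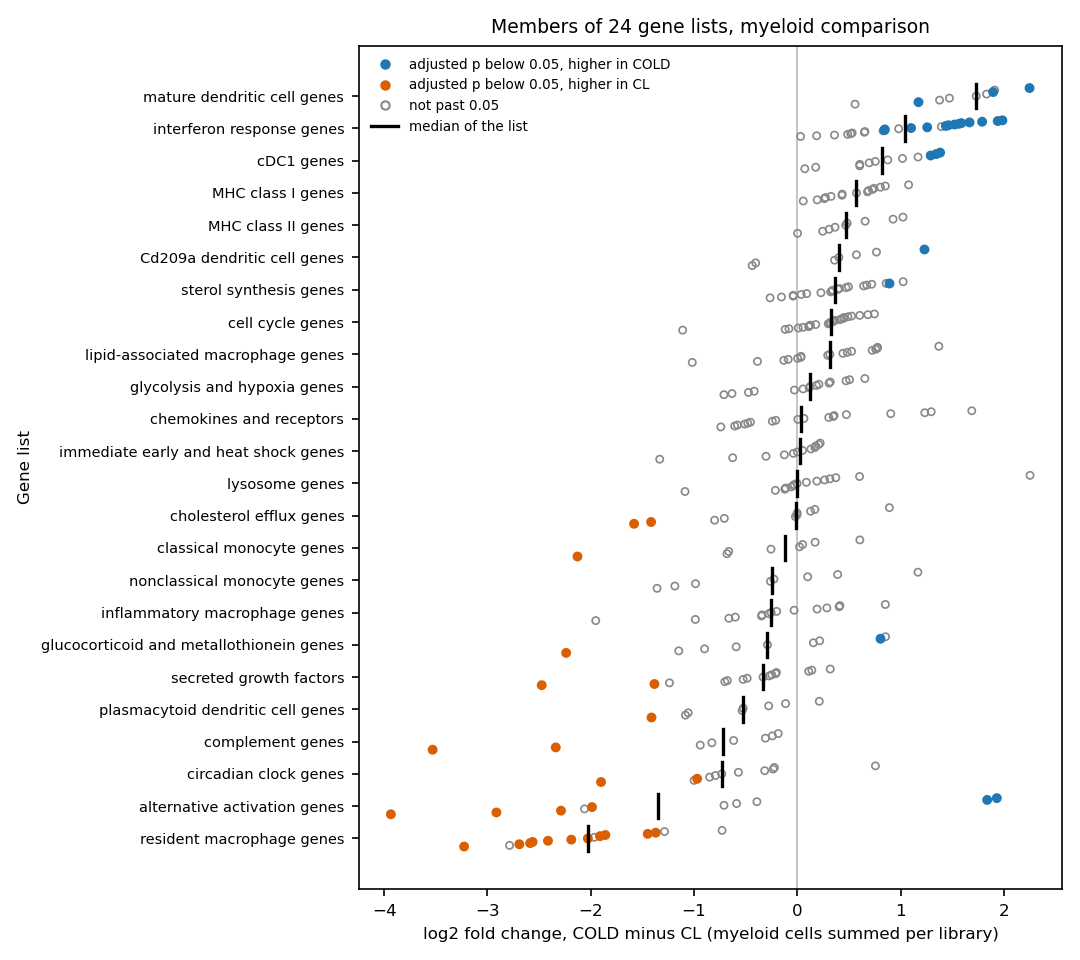
Log2 difference COLD minus CL of each tested member of 24 gene lists in myeloid-gated cells, with lists ordered by their median (black bar). Filled points passed an adjusted p of 0.05, and only the lists of mature dendritic cell, interferon, cDC1, Cd209a dendritic cell and sterol synthesis genes have filled points toward COLD with none toward CL.

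Other lists held few or no called members. Over all genes tested in myeloid cells, edgeR called 409 of 12504, and 2633 had an unadjusted p under 0.05. MHC class I genes had 0 of 15 called by edgeR (9 at an unadjusted p under 0.05, 6 by DESeq2), with a median of 0.57, and 14 of them had both COLD libraries above both CL libraries, against 22.8% of all genes tested. The block called 2 of them, against 700 of all 12504 genes. MHC class II genes outside the gate had 0 of 9 called (2 unadjusted, 0 by DESeq2, median 0.47). Their median was -0.68 with the gate without H2-Ab1 and 1.16 without CL replicate 2. Of 20 sterol synthesis genes only Mvd passed (0.89, adjusted p 0.0387). Among 15 inflammatory genes 0 were called (3 unadjusted, 1 by DESeq2), and Il1b (-0.27), Tnf (-0.20) and Il6 (-1.06) each had their highest level in an RT library. Of 24 cell cycle genes 0 were called (2 unadjusted, 0 by DESeq2), with Mki67 at 83.3 and 56.3 CPM in COLD and 83.6 and 33.8 in CL, Top2a at 0.45 and Birc5 at 0.01 on the log2 scale. The median of the 24 was 0.87 without CL replicate 1, -0.05 without CL replicate 2 and -0.69 with the gate without H2-Ab1. Chemokines and receptors had 0 of 18 called (5 unadjusted, 3 by DESeq2), lysosome genes 0 of 15 (3 and 1), glycolysis and hypoxia genes 0 of 15 (3 and 1), immediate early and heat shock genes 0 of 12 (1 and 1) and nonclassical monocyte genes 0 of 8 (2 unadjusted, 0 by DESeq2). The nonclassical list went in opposite directions with the CL library left out, with a median of -0.83 without CL replicate 1 and 0.93 without CL replicate 2. The block called 2 chemokine or receptor genes and 1 gene each of the inflammatory, lysosome and immediate early lists. The monocyte gene Ly6c2 was at 246 and 218 CPM in COLD and 147 and 257 in CL.

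The β adrenergic receptors are the targets of noradrenaline, and CL binds the β3 type. In the myeloid sums Adrb3, the β3 receptor, had too few counts to be tested. It had 2 and 2 in COLD, 13 and 1 in CL and 0 and 0 at RT. Adam12, a metalloprotease, was likewise not tested in these sums, with 5 and 2 counts in COLD and 3 and 6 in CL.

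In T cells, 333 and 527 gated cells in COLD and 130 and 539 in CL, edgeR called 7 of 8016 genes (0.0873%), 6 higher in COLD (0.0749%) and 1 higher in CL (0.0125%), and 557 genes had an unadjusted p under 0.05. With the replicate block 12 were called (10 and 2). Of the 6, 4 were interferon genes from the same list, of which 22 were tested with a median log2 difference of 1.68. Of these 22, 21 had both COLD libraries above both CL libraries, against 28.9% of all genes tested. The list's count of calls was 6 with the replicate block and 17 of 24 tested without a low-count filter. It was 2 without doublets and 0 with only the 4 COLD and CL libraries. Isg15 in T cells was at 331 and 341 CPM in COLD, 81.8 and 57.8 in CL and 104 and 90.9 at RT (2.10, SE 0.23, adjusted p 0.0106). Irf7 was at 196 and 169 CPM in COLD, 40.9 and 43.9 in CL and 24.9 and 43.2 at RT (1.76, adjusted p 0.0483). The CL and RT libraries lay close together or overlapped for both. Usp18 (2.88, adjusted p 0.037, on 48 and 96 counts in COLD and 1 and 12 in CL) and Ifit1 (2.82, adjusted p 0.0305) passed as well, beside the interferon-inducible surface protein Ly6a, at 694 and 634 CPM in COLD and 232 and 111 in CL (1.88, adjusted p 0.0305).

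The interferon list summed to 4465 and 4269 CPM in T cells of COLD, 1381 and 1369 in CL and 1293 and 1430 at RT. T cell sums also held counts of genes listed for other cells. The lipid-associated macrophage genes summed to 2328 and 1564 CPM in T cells of COLD, 1081 and 906 in CL and 692 and 906 at RT. In myeloid cells they summed to 23363 and 20894 in COLD, 24525 and 12075 in CL and 4560 and 4953 at RT. Whether T cells express some of these genes themselves was not tested. Gpnmb, the remaining gene higher in COLD, was at 91.8 and 77.3 CPM in T cells of COLD and 27.3 and 5.98 in CL (2.80, adjusted p 0.0453), below its level in myeloid cells in every library. Col3a1, a collagen of fibroblasts, was at 2.38 and 0.858 CPM in COLD and 18.2 and 66.5 in CL (-5.35, adjusted p 0.0324). Both CL libraries lay above both COLD libraries, which held for 5.78% of all genes tested, and the non-immune gate also held more cells in CL. The part of other cells in these results was not tested beyond leaving out doublets. Without either COLD library or without CL replicate 2 none of the 7 calls was kept, and all 7 were kept without CL replicate 1, which held only 130 T cells. Without doublets 2 of the 7 were kept (Ifit1 and Isg15), after thinning to the smallest total 2 (Isg15 and Ly6a), without RT replicate 1 only Isg15, and with only the 4 COLD and CL libraries 0.

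In B cells, 410 and 614 gated cells in COLD and 398 and 1450 in CL, edgeR called 3 of 8738 genes (0.0343%), 2 higher in COLD (0.0229%) and 1 in CL (0.0114%), and 475 had an unadjusted p under 0.05. With the replicate block 12 were called (7 higher in COLD and 5 higher in CL). The called genes were Ccl8, at 33.0 and 34.5 CPM in COLD and 622 and 284 in CL (-3.70, adjusted p 0.00227), Mmp12, at 90.9 and 66.2 against 14.6 and 5.86 (3.24, adjusted p 0.0312), and Slamf8, at 31.7 and 45.3 against 6.24 and 6.19 (2.53, adjusted p 0.0492). Without doublets the calls of Mmp12 and Slamf8 were lost, and Slamf8 passed in 5 of 15 alternatives, Mmp12 in 12 and Ccl8 in 15. The calls of Mmp12 and Slamf8 were also lost without COLD replicate 2 and without CL replicate 2. Macrophages express all 3. Myeloid sums held more Ccl8 (2974 and 885 CPM in CL) and more Slamf8 (126 and 110 CPM in COLD), and the part of macrophage RNA in the B cell sums was not tested. Of the 24 interferon genes 0 were called in B cells by edgeR (13 at an unadjusted p under 0.05, 2 by DESeq2, median 0.80). The count was 2 with the replicate block, 6 without a low-count filter and 0 with only the 4 COLD and CL libraries. Both COLD libraries lay above both CL libraries for 15 of the 24, against 20.3% of all genes tested. Isg15 was at 197 and 205 CPM in COLD and 93.6 and 61.9 in CL (1.40, adjusted p 0.114; 1.38 and 0.048 with the replicate block).

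**Figure D5:**
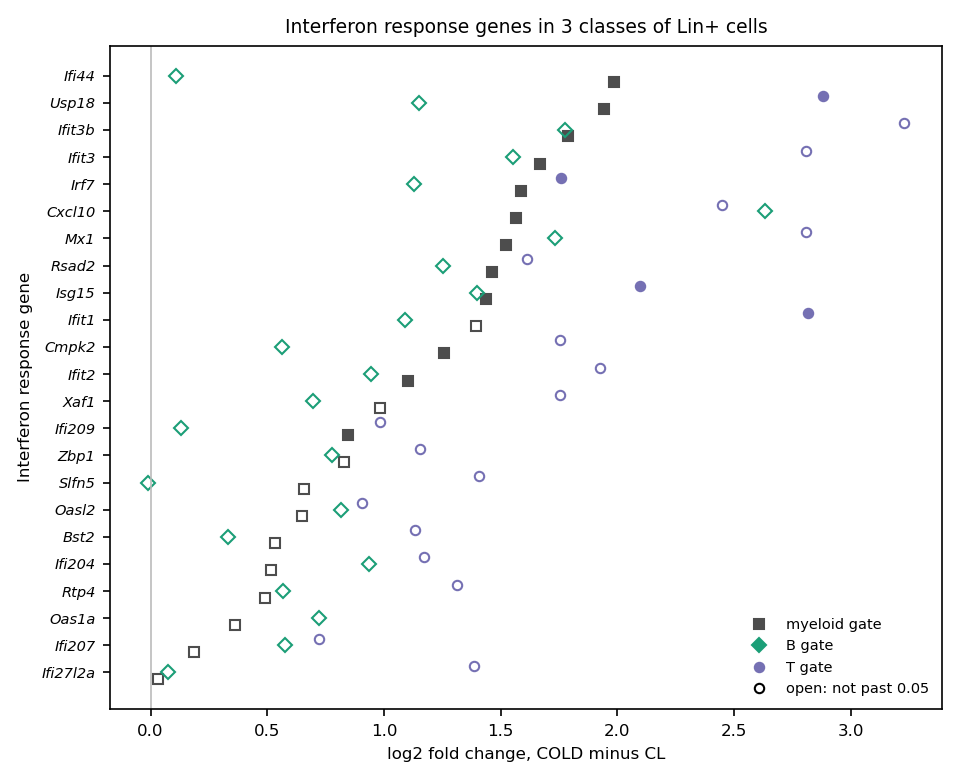
Log2 difference COLD minus CL of 23 interferon response genes in the myeloid, B and T gates, with filled points past an adjusted p of 0.05. In myeloid and T cells all plotted differences lie above 0, and no B cell point is filled.

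Whether myeloid and T cells responded differently was tested with an interaction term over both sums, with the library as a block. The term comes from this joint fit and need not equal the difference of the 2 separate estimates given beside it. The COLD minus CL difference was not the same in both classes for 107 of 11695 genes (0.915%), larger in myeloid cells for 33 and smaller for 74, with 1045 at an unadjusted p under 0.05. Ass1 differed by 2.22 in myeloid cells and -0.52 in T cells (interaction 2.70, adjusted p 5.76e-12), and Ccr7, which resting T cells also express, by 1.91 and -0.74 (interaction 2.66, adjusted p 2.71e-10). In myeloid cells Ass1 was called higher in COLD and Ccr7 was not (adjusted p 0.105), and in T cells the libraries overlapped for both. Ccl8 differed by -3.94 and -0.13 (interaction -3.16, adjusted p 0.00103). With both classes thinned to the smallest total the interaction was called for 1 gene.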

How the data were processed

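The authors aligned and counted the reads with Cell Ranger 3.0.1 (mm10 per the labels) and corrected each library with SoupX 1.0.1, an estimate of cell-free mRNA with Fabp4 and Car3 taken as genes the cells do not express. The deposited values are therefore expected counts (estimated counts of molecules), not whole numbers in 97.6% to 99.4% of entries above 0 in the 6 Lin+ libraries used, and without scaling for depth. SoupX subtraction can leave or remove counts of genes abundant in free RNA, and no genome coordinates are in the files.

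Cells were filtered as the study states (under 10% mitochondrial counts, under 15000 counts, under 4000 genes). Counts were summed per library over all cells and over the gates (B: at least 2 counts of Cd79a, Cd79b and Ms4a1; T: at least 2 counts of Cd3e, Cd3d and Cd3g), rounded to whole numbers and fitted with edgeR 4.0.16 in R 4.3.3 (TMM, filterByExpr, glmQLFit, glmQLFTest, two-sided) over the 6 C57 Lin+ libraries, with the contrast COLD minus CL. The Benjamini-Hochberg adjustment ran over every gene tested, with 0.05 as threshold. The interaction of class and treatment took the library as a block. Shares of cells were compared by exact permutation (scipy 1.17.1), with 95% Clopper-Pearson intervals, and shares of cells with a count after thinning to 800 counts. Thinning left out cells with fewer than 800 counts. The steps were tested on simulated data.

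The members and gene lists were chosen with earlier results of these data known. Named genes were the 12 called genes with the largest difference in each direction with libraries apart and a mean of at least 20 CPM (6 in B and T cells), called members of each list up to 6, those of highest level where few were called, and a set always given; not every gene under this rule is printed. Further called list members are given as values. Some results are not reported here.

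Per the study's methods, C57 libraries with the same replicate number came from the same replicate experiment. Their deviations from the group means correlated by 0.12 to 0.253 between groups in myeloid cells, 0.197 to 0.384 in all cells, 0.0832 to 0.164 in B cells and 0.0136 to 0.139 in T cells. The fits above do not use the number. The fit with the number as a block is given where it changes the call of a named gene, for all genes called in each class of cells and for some lists. Replicate libraries differed by more than sampling noise (chi-square per degree of freedom 3.96 or more). Doublets were kept, and the 6% of cells with the highest Scrublet scores (scanpy 1.11.5) were left out as an alternative, beside DESeq2 1.42.0 and the other settings of the closing section.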

Additional observations from a re-analysis of the deposited data

Results flagged for a closer look

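The COLD minus CL difference was not the same in myeloid and T cells for 9 of the named genes, by the interaction term of edgeR's quasi-likelihood test with the library as a block and Benjamini-Hochberg adjustment over all genes tested. Each value is the interaction term of a joint fit of both classes, positive where the log2 difference COLD minus CL was larger in myeloid cells, and need not equal the difference of the estimates from the separate fits. It was larger in myeloid cells for Ass1 (2.70, adjusted p 5.76e-12), Ccr7 (2.66, adjusted p 2.71e-10), the integrin chain gene Itgae (2.06, adjusted p 0.049) and Sgk1 (1.18, adjusted p 0.0173). In T cells alone these genes differed by -0.52, -0.74, -0.88 and -0.44, none of them called. It was smaller in myeloid cells for Ccl8 (-3.16, adjusted p 0.00103), S100a8 (-2.36, adjusted p 0.0004), Cd38 (-2.09, adjusted p 0.0437), Spp1 (-1.57, adjusted p 0.012) and Il1b (-1.34, adjusted p 0.00661).

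S100a8, Spp1 and Il1b were called in neither class alone. Spp1 was at 77.5 and 85.8 CPM in T cells of COLD and 54.5 and 5.98 in CL, against 731 and 751 and 1325 and 222 in myeloid cells. Il1b was at 160 and 136 CPM in T cells of COLD and 63.6 and 65.8 in CL, against 461 and 341 and 345 and 604 in myeloid cells. With both classes thinned to the smallest total, 1 gene was called by the interaction term.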

How the results depend on the processing

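Most genes called in all cells and in myeloid cells and followed here lost the call when 1 COLD or 1 RT library was left out, while thinning to the smallest total kept 46 of the 52 myeloid and 8 of the 9 all-cell calls. Of the 52 myeloid calls, the gate without H2-Ab1 kept 28 (20 lost, and Il12b, Tmem123 and Xcr1 changed sign), the 5% limit 18 and the fit of only the 4 COLD and CL libraries 15. Of 1688 values for 94 pairs of a named gene and a cell class under the alternatives, 1215 kept their direction and their side of the threshold, 408 kept the direction and lost the call, 39 gained a call and 26 changed sign. The cause of each change was not tested. A fit that leaves out 1 of 2 libraries assumes that the remaining one varies like the other groups. The CL libraries held fewer counts than the COLD libraries, which limits the precision of low genes. For all Lin+ cells (16 genes, 8 higher in COLD and 8 in CL), DESeq2 called 711 (311 and 400) and edgeR without any low-count filter 989 (368 and 621). edgeR called 0 genes with a mitochondrial limit of 5% (2071 at an unadjusted p under 0.05), 0 with only the 4 COLD and CL libraries (2083) and 0 without doublets (2223). Leaving out 1 library gave 0 to 1785 genes, 0 to 662 higher in COLD and 0 to 1123 in CL. For myeloid cells (409, 137 and 272), DESeq2 called 907 (349 and 558), the gate without H2-Ab1 207 (72 and 135), the limit of 5% 123 (36 and 87), no filter 1743 (692 and 1051) and only the 4 libraries 61 (23 and 38). Leaving out 1 library gave 4 to 1024, with 1 to 431 higher in COLD and 3 to 712 in CL.

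For B cells (3, 2 and 1), DESeq2 called 11 (4 and 7), no filter 125 (63 and 62) and the fit without doublets 1, with 0 higher in COLD. Only 1 gene was higher in COLD with RLE size factors, with cells of at least 800 counts, with the 5% limit and with only the 4 libraries, and 2 were higher in CL after thinning. Leaving out 1 library gave 2 to 31 genes, 1 to 13 higher in COLD and 1 to 18 in CL. For T cells (7, 6 and 1), no filter called 128 (82 and 46), only the 4 libraries 0 (0 and 0, 511 unadjusted), thinning 2 (2 and 0) and the fit without doublets 2 (2 and 0). Leaving out 1 library gave 0 to 138 genes, 0 to 67 higher in COLD and 0 to 71 in CL. For the interaction (107, 33 and 74), no filter called 162, of which 113 were smaller in myeloid cells, and thinning 1 (1 larger and 0 smaller in myeloid cells). Leaving out 1 library gave 52 to 317, with 21 to 110 larger and 31 to 207 smaller.

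With the replicate number as a block, since libraries of one number came from one experiment, edgeR called 101 genes in all cells (45 and 56), 700 in myeloid cells (237 and 463), 12 in B cells (7 and 5) and 12 in T cells (10 and 2). Among the named genes the block added calls for Lyve1, Gpnmb, S100a8 and Cd79a in myeloid cells and Isg15 in all cells and B cells, and it changed no other call. Within replicate number 1 the myeloid share differed by -1.05 points and within number 2 the T cell share by -0.605 points.

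The share of myeloid cells differed by -3.93 to 27.1 points, that of B cells by -14.97 to 0.957 and that of T cells by -2.40 to 3.78 when 1 library was left out. Thinning to 800 counts moved the NK difference to 0.184 points. Log2 differences that changed sign in myeloid cells came from the gate without H2-Ab1 for Il12b (-0.32), Tmem123 (-0.056), Xcr1 (-0.24), Trem2 (0.46), Mki67 (-0.72), Top2a (-0.59), Birc5 (-0.94), Igf1 (0.12) and Cd209a (-0.45). Leaving out 1 library gave -0.49 to 0.36 for Trem2, -0.69 (called, adjusted p 0.048) to 1.62 for Spp1, -0.71 to 0.36 for Il1b, -0.44 to 0.0212 for Tnf, -0.26 to 0.81 for Ly6c2, -0.11 to 0.93 for Mki67, -0.43 to 0.68 for Birc5, -0.86 to 0.0522 for Igf1 and -0.10 to 1.18 for Cd209a, with CL replicate 1 or 2 left out at each end except for Tnf, where it was COLD replicate 1 or 2. Spp1 was at -0.0099 with a gate of 5 counts and -0.15 with a gate on thinned cells, and Il1b at 0.0014 without doublets. Birc5, which was at 0.01, gave -0.000844 with a gate of 5 counts, -0.0102 with the 5% limit, -0.0137 after thinning and -0.0117 without doublets.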
